A study of Mus musculus with 4 samples.

Results

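The kinesins are the motor proteins that walk along microtubules, and the values below describe the genes that encode them in the lenses of young mice with an allele for a hyperactive PDGFRβ. The members were chosen by name and biotype: a gene of the deposited table was taken where it was annotated as protein coding and its symbol was *Kif* followed by a number and at most 1 letter, or *Kifc1*, *Kifc2* or *Kifc3*. No expression value entered this rule, although the family and its role classes were chosen with earlier results of these data known. The rule returned 42 genes out of 56748 in the table, of which 21970 were protein coding. RNA had been sequenced from lenses of mice aged 10 to 12 days in 4 libraries. The mutant group held 2 libraries from Fsp1-cre;Pdgfrb+/D849V mice, in which an activating Pdgfrb allele sits in the endogenous locus of 1 chromosome copy and Cre is driven by the *Fsp1* (*S100a4*) promoter, which is not restricted to the lens. The control group held 2 libraries labelled Fsp1-cre;Pdgfrb+/+, although the study's methods state that the control pools also took in mice without Cre, of the Pdgfrb+/+ and the Pdgfrb+/D849V genotype. Lenses of several mice were pooled for each library on an FVB/N background, so a library stands for a pool and the spread between libraries is a spread between pools. Because both alleles of *Pdgfrb* are read as the same gene, the table cannot check the genotype.

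Kinesins share a motor domain that hydrolyses ATP to move along, or to take apart, microtubules. Kinesin-1 motors (*Kif5a*, *Kif5b*, *Kif5c*) carry vesicles, mitochondria and RNA outward in the cell, the heterotrimeric kinesin-2 motors (*Kif3a*, *Kif3b*, *Kif3c*) build cilia and move other cargo, and the kinesin-3 motors (*Kif1a*, *Kif1b*, *Kif1c*, *Kif13a*, *Kif13b*, *Kif16b*) carry vesicle precursors and endosomes over long distances. Another set assembles the spindle and completes cell division, and a smaller set acts in cilia and in Hedgehog signalling. The lens holds an epithelial monolayer in which division takes place and a mass of fibre cells that elongate along dense microtubules and then lose their nuclei and organelles.

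Values are FPKM, fragments scaled to gene length and to a library size, which allows a rough comparison between genes of different length. The library size used was 0.944 to 1.05 times the reads assigned to genes, so it was not the plain depth. The 4 libraries held 18561682 to 18878768 reads assigned to genes, of which crystallin genes took 58.6% to 62.9%. Summed lens fibre markers lay between 113200 and 138500 FPKM and summed lens epithelial markers between 132.0 and 159.1 FPKM, so the lens label was borne out by both sets. The fibre gene *Lim2* is nevertheless listed at 0 in all libraries. Summed markers of other cell types were low: 0.351 to 0.549 FPKM for neurons, 0.249 to 2.02 for photoreceptors, 2.08 and 2.68 in mutant against 2.92 and 3.25 in control libraries for endothelium, 14.2 to 16.6 for mural cells and 17.2 to 34.9 for red cells. Macrophage markers summed to 1.71 and 1.76 FPKM in the mutant libraries and 0.780 and 0.444 in the control libraries. All 3 of the 5 macrophage markers that could be tested were higher in mutant lenses at an unadjusted p under 0.05, with adjusted p between 0.737 and 0.788 (limma), and *Ptprc* was at most 0.00613 FPKM in any library. Among all genes tested, 6.31% had such an unadjusted p in either direction. When reads were fitted with voom, 0 of these macrophage markers had one. Their reads were few, at 19 and 13 in mutant and 9 and 5 in control libraries for *C1qa*. For *C1qb* they were 6 and 8 against 2 and 1. Markers of pigmented and ciliary epithelium summed to 1.72 and 1.78 FPKM in mutant and 1.47 and 1.39 FPKM in control libraries, nearly all of it from *Mitf* (adjusted p = 0.811, limma), with *Rpe65* at 0 throughout. The part of these cells in the kinesin values was not tested. *Xist* ranged from 5.56 to 15.6 FPKM and was lowest in mutant replicate 1 and control replicate 2, so the pools differed in their mix of sexes within both groups. In whole lenses fewer cells of a type and less RNA per cell cannot be told apart.

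The lens kinesin profile was dominated by a few transport motors. *Kif1a*, the kinesin-3 motor of synaptic vesicle precursors in neurons, was the most abundant, at 31.4 and 33.5 FPKM in the mutant libraries and 36.1 and 35.5 in the control libraries. *Kif3a*, the motor subunit shared by the kinesin-2 complexes, followed at 21.5 and 17.5 FPKM in mutant lenses and 19.7 and 22.1 in control lenses. *Kif5b*, the widely expressed kinesin-1 heavy chain, was at 8.64 and 8.99 FPKM in mutant lenses and 8.77 and 10.9 in control lenses. The ranges of *Kif1a* and *Kif3a* over the 4 libraries met neither each other nor that of *Kif5b*, so *Kif1a* ranked first and *Kif3a* second in every library. *Kif1c*, which carries vesicles in many cell types, was at 7.39 and 7.80 FPKM in mutant and 8.83 and 9.20 FPKM in control lenses. *Kifc3*, a motor that moves toward the minus end and acts at cell junctions, was at 7.496 and 6.71 FPKM in mutant and 6.70 and 7.43 FPKM in control lenses. *Kif5b*, *Kif1c* and *Kifc3* overlapped in turn, and their order is therefore not resolved. Genes on the opposite strand share 27.5% of the *Kifc3* exon bases, among them *Gm31224* with a mean of 6.04 FPKM. The *Kifc3* level is uncertain for that reason.

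Together, *Kif1a* and *Kif3a* made up 51.6% and 49.7% of the summed kinesin FPKM in mutant lenses and 50.2% and 49.1% in control lenses, and the 5 most abundant members made up between 72.0% and 74.5%. The neuronal markers stood at under 0.6 FPKM in sum beside more than 31 FPKM of *Kif1a*, and the neuron-specific *Stmn2* was at 0 in all but 1 library, where it had 1 read. A second step down separated *Kifc3* from *Kif5c*, *Kif21a* and *Kif1b*, which lay between 3.005 and 5.44 FPKM and overlapped one another. A total of 13 members averaged at least 1 FPKM, all of them from the transport and microtubule dynamics classes. The other 29 were below that level, and *Kif12* and *Kif2b*, of which *Kif2b* acts in spindle attachment, are listed at 0 in all 4 libraries.

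**Figure D1:**
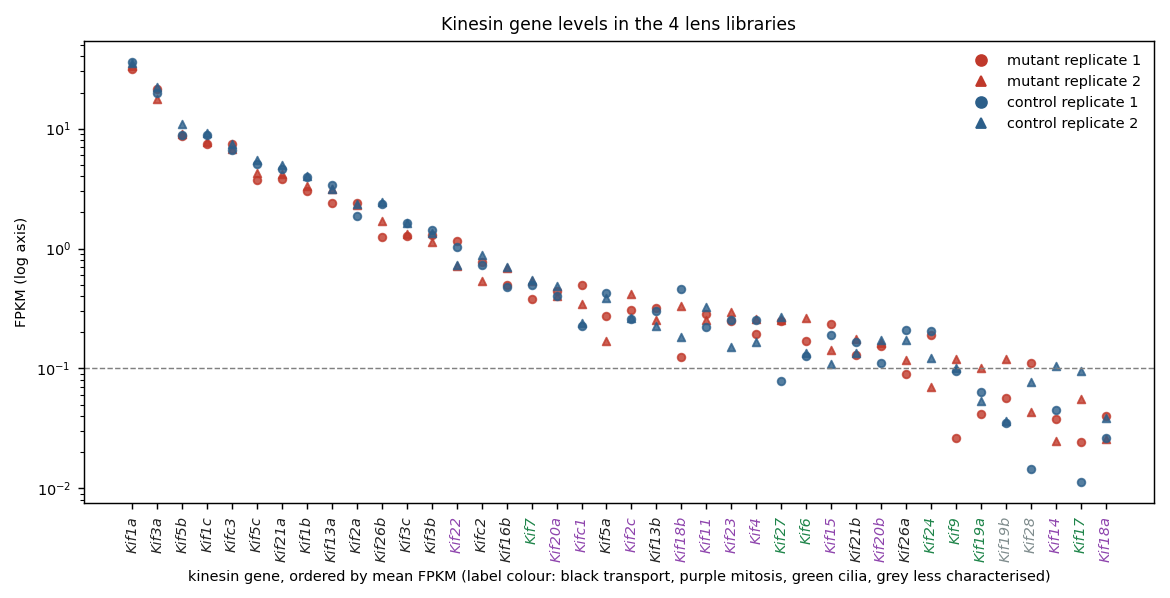
FPKM of the 40 kinesin genes not listed at 0, on a log axis, in order of their mean, with 1 marker per library (circle replicate 1, triangle replicate 2, colour for genotype) and a dashed line at the filter of 0.1 FPKM. *Kif1a*, at 31.4 to 36.1 FPKM, and *Kif3a*, at 17.5 to 22.1 FPKM, stand clear of the rest, and most members lie below 1 FPKM with the genotypes intermixed.

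The comparison between genotypes asks how lens transcripts differ in carriers of the activating allele before the lens turns opaque. The paper reports robust Cre reporter activity in the lens epithelium from an age later than that of these lenses. It assumes, without showing it, that the mutant receptor is expressed once Cre is present. A total of 33 members passed the filter of a mean of at least 0.1 FPKM and were tested among 15997 genes. The members nearest to that limit were *Kif24*, a centriolar motor, with a mean of 0.147 FPKM, and *Kif9*, a motor of motile cilia, with a mean of 0.0854 FPKM. No kinesin gene passed an adjusted p under 0.05 (limma on log2 FPKM), against 6 of all genes tested, or 0.0375%. The smallest adjusted p in the family was 0.690, for *Kif26b*. At an unadjusted p under 0.05 there were 3 members, *Kif26b*, *Kif5c* and *Kif1b*, all lower in mutant lenses, beside 6.31% of all genes in either direction and 2.92% in the lower direction. That count depended on single libraries: it was 5 without mutant replicate 2, 0 without control replicate 1 and 1 without control replicate 2. When the same libraries were fitted as whole reads with voom, 5 members had an unadjusted p under 0.05, again all lower, beside 7.43% of all genes in either direction and 4.0% in the lower direction, and *Kif26b* alone passed after adjustment, where 14 of all genes, or 0.0875%, did so.

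Of the tested members 20 were lower in mutant lenses and 13 were higher, a share of 60.6% lower beside 49.3% of all genes tested. Their median log2 fold change, mutant over control on the log2(FPKM + 0.1) scale, was −0.10, and that of all genes was 0.0041. In 13 members the ranges of the genotypes did not overlap, a share of 39.4% beside 36.6% of all genes, which is near the background. In the lower direction there were 10 such members, beside 18.3% of all genes. The summed FPKM of the family was 102.6 and 102.8 in mutant lenses and 111.2 and 117.4 in control lenses, or 102.7 ± 0.195 and 114.3 ± 4.39 (SD, n = 2 each), and the groups did not overlap. Among the 13 members with at least 1 FPKM on average, 11 were lower, with a median of −0.23, beside 48.6% of the 8378 genes of all kinds above that level. Among the 20 tested members under 1 FPKM, 9 were lower and 11 higher, with a median of 0.04. The difference between these level classes was not tested, and the largest negative value of the family, −0.68 for *Kif5a*, belonged to a gene under 1 FPKM.

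**Figure D2:**
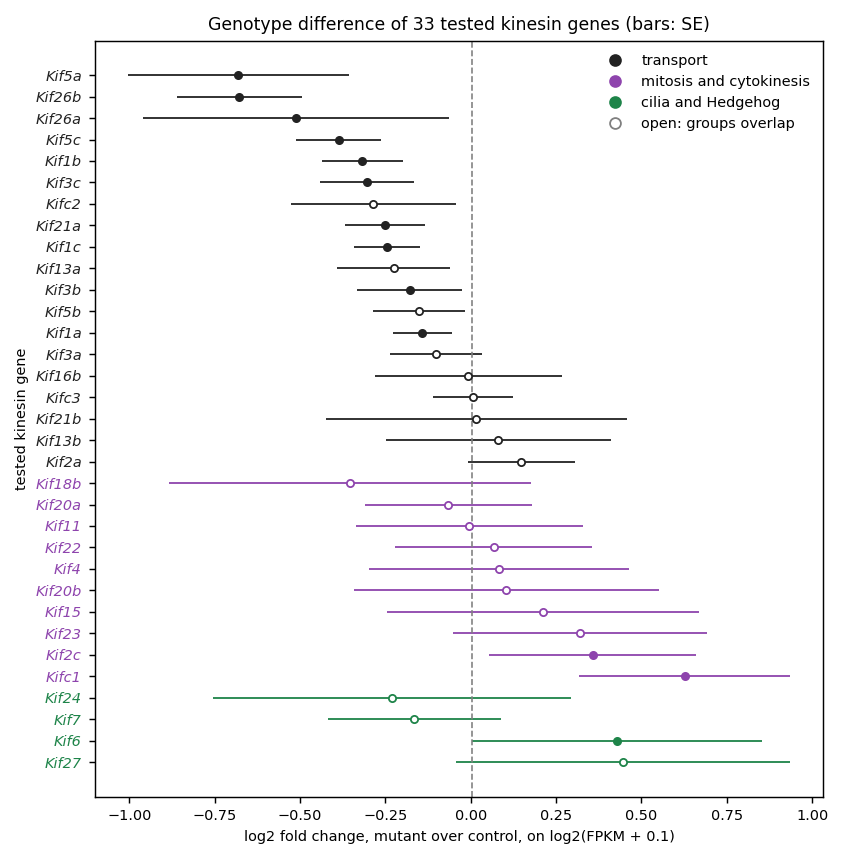
Log2 fold change (mutant over control, bars are standard errors from limma) of the 33 tested kinesin genes, coloured by role, where transport includes the microtubule dynamics motors and filled points mark genes whose groups did not overlap. Of the 19 genes in the transport class, which also holds *Kif26a* and *Kif26b*, 15 lie left of 0, beside 49.3% of all genes tested. Of 10 mitotic motors 7 lie right of 0. No gene shown passed an adjusted p under 0.05.

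All 3 kinesin-1 heavy chains were lower in mutant lenses, and the median of their log2 fold changes was −0.39. *Kif5c*, a heavy chain enriched in neurons (chr2:49509310-49664790, mm39), was at 3.71 and 4.28 FPKM in mutant lenses and 5.06 and 5.44 in control lenses. The groups did not overlap, and the mutant mean of 3.995 ± 0.408 was 76.2% of the control mean of 5.25 ± 0.271 (SD, n = 2 each). The log2 fold change was −0.39 (SE 0.12) with adjusted p = 0.757 (limma), and it ran from −0.49 to −0.29 as single libraries were left out. *Kif5a*, the neuronal heavy chain, was at 0.273 and 0.168 FPKM in mutant and 0.427 and 0.388 FPKM in control lenses, which came from 34 and 23 reads against 58 and 50. Its log2 fold change of −0.68 had a standard error of 0.32 (adjusted p = 0.811, limma), so the size is poorly fixed at this depth. *Kif5b*, whose values are given above, overlapped between the groups. It supplied 68.5% and 66.9% of the kinesin-1 FPKM in mutant lenses and 61.5% and 65.2% in control lenses, so the groups were apart in this share while the ratio of *Kif5c* to *Kif5b*, at 0.429 and 0.477 against 0.576 and 0.497, was lower in both mutant libraries. The shares were not tested.

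In the kinesin-2 complex *Kif3a* pairs with *Kif3b* or *Kif3c*, and *Kifap3* binds the pair. *Kif3a* overlapped between the groups (log2 fold change −0.10), and its sign turned to 0.04 without mutant replicate 2. *Kif3b* was at 1.29 and 1.14 FPKM in mutant and 1.43 and 1.35 FPKM in control lenses. *Kif3c* was at 1.27 and 1.31 FPKM in mutant and 1.62 FPKM in both control libraries, which gave −0.30 on the log2 scale with adjusted p = 0.809 (limma). Both partners were lower in each mutant library than in each control library. In FPKM *Kif3a* exceeded its partners combined by 8.39 and 7.15 times in mutant lenses and 6.45 and 7.46 times in control lenses, so the transcripts of the complex were far from equal in every library. The ratio of *Kif3a* to *Kifap3* ranged from 4.97 to 7.09 and overlapped between the groups. *Kif3c* shares 40.7% of its exon bases with genes on the opposite strand, and whether the library kept strand is not given in the sources used here, so its reads cannot all be assigned to it with certainty. The same limit holds for *Kif20a* (29.3%), *Kifc3* (27.5%), *Kif7* (20.3%), *Kif2a* (19.2%) and *Kif4* (15.1%). For *Kif20a*, with a mean of 0.433 FPKM, the overlapping gene *Cdc23* averaged 1.53 FPKM.

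Of the 6 kinesin-3 genes 5 were lower, with a median of −0.18. *Kif1a*, the most abundant kinesin, was lower in both mutant libraries than in either control library, at 32.5 ± 1.53 against 35.8 ± 0.432 FPKM (SD, n = 2 each). Its log2 fold change was −0.14 (SE 0.087), the groups rested on 5218 to 6551 reads per library, and adjusted p = 0.811 (limma). *Kif1b*, which carries mitochondria and synaptic vesicle precursors (chr4:149260776-149392150, mm39), was at 3.005 and 3.35 FPKM in mutant and 3.92 and 4.05 FPKM in control lenses. The mutant mean was 79.8% of the control mean, with a log2 fold change of −0.32 (SE 0.12) and adjusted p = 0.787 (limma). *Kif1c* (chr11:70591374-70622790, mm39) had a log2 fold change of −0.24 (SE 0.097) and adjusted p = 0.789 (limma), again with no overlap. *Kif13a*, a motor of recycling endosomes, was at 2.40 and 3.15 FPKM in mutant and 3.36 and 3.12 FPKM in control lenses, so its groups overlapped. *Kif16b*, an early endosome motor, and *Kif13b* lay within 0.1 of 0 on the log2 scale.

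**Figure D3:**
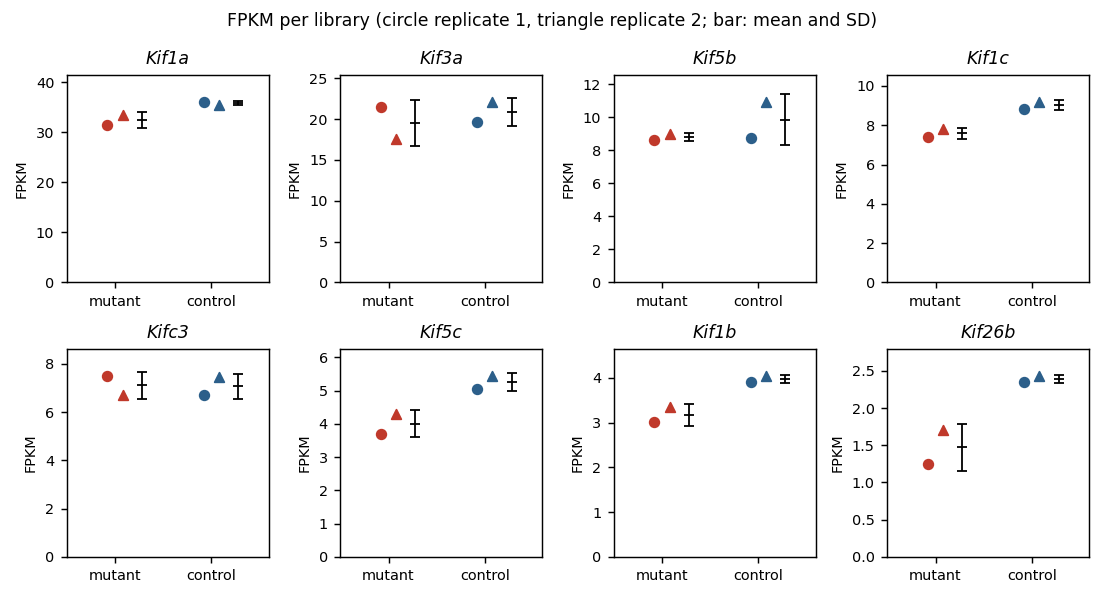
FPKM of 8 kinesin genes in each library (circle replicate 1, triangle replicate 2), with the mean and SD of each genotype beside the points and every axis starting at 0. *Kif1a*, *Kif1c*, *Kif5c*, *Kif1b* and *Kif26b* are lower in both mutant libraries than in both control libraries, whereas *Kif3a*, *Kif5b* and *Kifc3* overlap.

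*Kif26b*, a kinesin without motor activity that acts in Wnt signalling, cell adhesion and kidney development (chr1:178356690-178766765, mm39), had the smallest p of the family. It was at 1.25 and 1.70 FPKM in mutant lenses and 2.35 and 2.43 in control lenses, from 327 and 489 reads against 672 and 659. The groups did not overlap, and the mutant mean of 1.47 ± 0.319 was 61.6% of the control mean of 2.39 ± 0.0573 (SD, n = 2 each). The log2 fold change was −0.68 (SE 0.18) with adjusted p = 0.690 (limma), and −0.71 with adjusted p = 0.0394 when the reads were fitted with voom. Over 15 alternatives in the processing the adjusted p ran from 0.0394 to 0.895, and as single libraries were left out the log2 fold change ran from −0.89 to −0.47. Relative to *Kif1a* it was 0.0398 and 0.0507 in mutant lenses and 0.0651 and 0.0685 in control lenses. Its closest relative *Kif26a*, also without motor activity and linked to enteric neuron development, was at 0.0892 and 0.118 FPKM in mutant and 0.208 and 0.173 FPKM in control lenses, from 11 and 16 reads against 28 and 22. The log2 fold change of *Kif26a* was −0.51 (SE 0.45) with adjusted p = 0.8125 (limma). Both genes of this subfamily were thus lower in each mutant library, at levels that differ more than 10-fold. Of all genes tested, 18.3% were lower without overlap.

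The *Kif26b* promoter is shown because this gene gave the only adjusted p under 0.05 in the family. It is the RefSeq sequence of 300 bases (GRCm38.p6, chr1:178528875-178529174, plus strand), from 250 before to 50 after the transcript start, in which 38 CpG dinucleotides lie. Capitals mark, in order, 1 GC box (GGGCGG, here on the other strand as CCGCCC), 1 CCAAT box (here as ATTGG) and 1 TTTGAA match. The last of these begins 9 bases before the start. No TATAAA was found in it. Among all 32851 RefSeq promoters of this length, 35.7% hold GGGCGG, 37.4% hold CCAAT, 17.9% hold TTTGAA and 13.6% hold TATAAA on either strand. A match is a description of letters and not of binding.
Kif26b promoter: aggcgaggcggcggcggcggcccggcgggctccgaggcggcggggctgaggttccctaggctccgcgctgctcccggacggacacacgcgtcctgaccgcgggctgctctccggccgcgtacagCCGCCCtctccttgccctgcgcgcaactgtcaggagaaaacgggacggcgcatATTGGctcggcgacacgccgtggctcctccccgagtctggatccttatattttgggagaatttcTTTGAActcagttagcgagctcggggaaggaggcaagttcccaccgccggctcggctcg

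Of the remaining motors of this class, *Kif21a*, a motor that restrains microtubule growth, was at 3.79 and 4.17 FPKM in mutant and 4.57 and 4.94 FPKM in control lenses, which gave −0.25 on the log2 scale (adjusted p = 0.809, limma). *Kif2a*, which takes microtubules apart, was at 2.40 and 2.29 FPKM in mutant and 1.88 and 2.35 FPKM in control lenses. It was the only member above 1 FPKM besides *Kifc3* that was not lower in mutant lenses, and its groups overlapped. Over the 19 genes of the transport and dynamics class, *Kif26a* and *Kif26b* included, 15 were lower and 4 higher, and the median log2 fold change was −0.23. The share lower was 78.9%, beside 49.3% of all genes tested and 56.1% of those from 5000 to 10000 bases long. In 10 of these 19 genes the groups did not overlap in the lower direction, beside 18.3% of all genes. The difference between this class and the mitotic class was not tested.

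The median difference between the groups changed with gene length, mostly through mutant replicate 1, and kinesin genes are long. Among all tested genes the median log2 fold change was 0.08 for lengths up to 2000 bases, 0.02 from 2000 to 5000, −0.03 from 5000 to 10000 and −0.07 beyond 10000. The kinesins had a median length of 6957 bases, against 3504 for all genes tested. The 20 members between 5000 and 10000 bases had a median of −0.15, and the 5 beyond 10000 had a median of 0.02. Mutant replicate 1 stood apart in this respect: its short genes had a median deviation of 0.09 and the other libraries between −0.06 and −0.03. For genes over 5000 bases it was −0.036 in mutant replicate 1 and 0.0019 in mutant replicate 2. The control libraries had 0.028 and 0.021. After a correction for length, chosen after the data were seen, 18 of the 33 tested members were lower, beside 7980 of all 15997 genes tested. The median of the members was then −0.09, and that of all genes 0.001. The transport class had a median of −0.18, with 14 of its 19 genes lower. *Kif26b* was then at −0.61, *Kif5c* at −0.35 and *Kif1b* at −0.24, so the last lost its unadjusted p under 0.05. The part of length in the remaining differences was not tested.

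**Figure D4:**
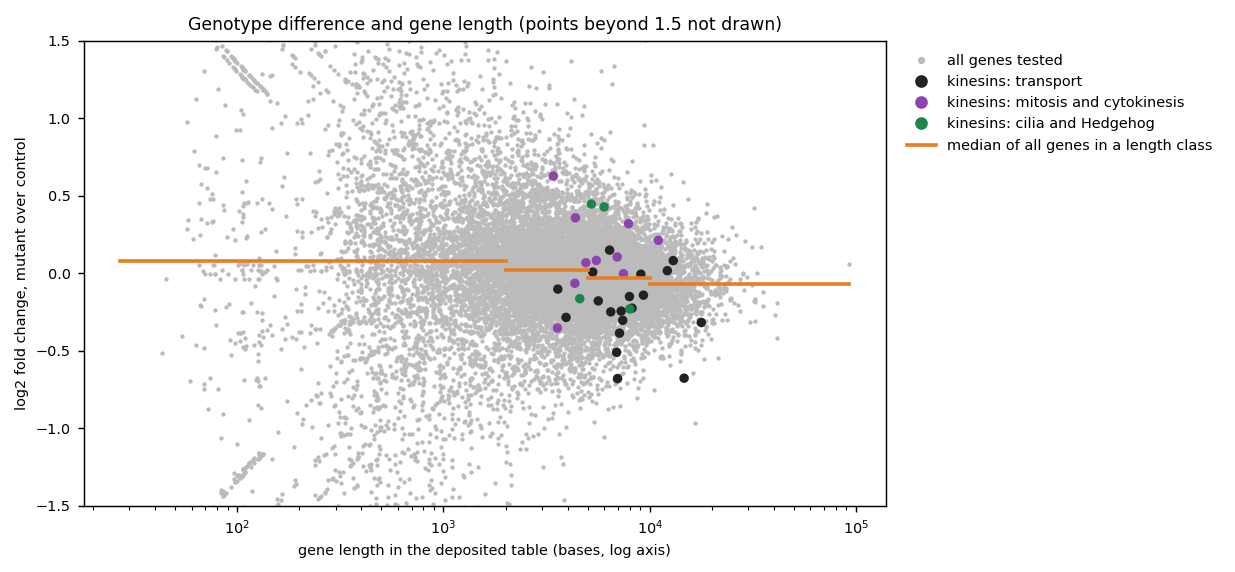
Log2 fold change (mutant over control) of every tested gene against its length on a log axis, with kinesins in the colours of their role and orange lines for the median of all genes in a length class. The medians step from 0.08 in the shortest class to −0.07 in the longest, and most genes of the transport class lie below the line of their own length class.

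The kinesins of mitosis and cytokinesis were present at low levels, and their direction was mixed. Of 13 genes 10 were tested, 7 were higher and 3 lower in mutant lenses, the median on the log2 scale was 0.09, and none had an unadjusted p under 0.05. Their summed FPKM was 3.71 and 3.38 in mutant lenses and 3.48 and 2.97 in control lenses, so the groups overlapped. *Kif22*, which moves chromosomes along spindle microtubules, was the most abundant at 1.16 and 0.719 FPKM in mutant and 1.03 and 0.730 FPKM in control lenses. *Kifc1*, which focuses spindle poles, was at 0.493 and 0.344 FPKM in mutant and 0.226 and 0.238 FPKM in control lenses, from 30 and 23 reads against 15 in each control. Its log2 fold change was 0.63 (SE 0.31) with adjusted p = 0.811 (limma), the largest of the family in the higher direction. However, 57.2% of the words of 31 bases in its transcripts also occur in other genes, mainly *Kifc5b*, so its reads are uncertain. *Kif2c*, the depolymerase that corrects faulty attachments, was at 0.309 and 0.421 FPKM in mutant and 0.259 and 0.261 FPKM in control lenses, also without overlap. The spindle motor *Kif11* and the cytokinesis motors *Kif20a* and *Kif23* overlapped between the groups, with log2 fold changes of −0.0036, −0.07 and 0.32.

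Many of these motors had the same short run of letters in their promoters, and any link to their levels was not tested. The letters TTTGAA, the core of the cell cycle genes homology region through which many mitotic genes are held silent outside division, occurred on either strand in 10 of the 12 mitotic kinesins with a RefSeq promoter. They occurred in 3 of the 20 other kinesins that had one, namely *Kif1a*, *Kif26b* and *Kif27*, and 10 members had no entry. Of the promoters themselves, 83.3% held the motif in the mitotic class, 12.5% in the other kinesins and 17.9% overall. The non-kinesin mitotic genes had it in 78.3% of their promoters. CCAAT, which accompanies this element in many such promoters, was present in 66.7% of the mitotic kinesin promoters against 37.4% of all, but also in 80.0% of those of intraflagellar transport genes, where the former letters were found in none. The GC box GGGCGG was found in 81.2% of the promoters of the transport class, in 6 of the 12 mitotic kinesin genes and in 91.3% of the promoters of non-kinesin mitotic genes. The windows below show the match in capitals, as TTTGAA or as its reverse complement TTCAAA, with 20 bases on each side in the direction of transcription (GRCm38.p6), for 5 of the mitotic motors. *Kif11* is at chr19:37376343-37376388 on the plus strand, *Kif20b* at chr19:34922345-34922390 on the plus strand, *Kif22* at chr7:127042412-127042457 on the minus strand, *Kif23* at chr9:61946772-61946817 on the minus strand and *Kifc1* at chr17:33890607-33890652 on the minus strand.
Kif11: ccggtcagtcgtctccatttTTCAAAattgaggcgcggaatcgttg
Kif20b: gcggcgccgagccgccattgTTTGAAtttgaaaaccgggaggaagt
Kif22: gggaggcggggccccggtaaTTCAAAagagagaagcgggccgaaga
Kif23: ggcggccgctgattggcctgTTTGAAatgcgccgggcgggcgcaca
Kifc1: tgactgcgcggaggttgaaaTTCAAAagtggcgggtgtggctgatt

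Counted from the transcript start, the match began at −19 in *Kif11* and −17 in *Kif22*, where it precedes the start, and at 8 in *Kif20b*, 3 in *Kif23* and 2 in *Kifc1*, where it follows it. *Kif20b* and *Kif22* held 2 matches each, which in *Kif20b* follow directly on one another. The matches of the other mitotic motors were not all close to the start, and that of *Kif2c* began at −103 and that of *Kif14* at −228.

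The motors of cilia and Hedgehog signalling were at lower levels still. Of 7 genes 4 were tested, 2 higher and 2 lower in mutant lenses. *Kif7*, which regulates Gli proteins at the cilium tip, was at 0.380 and 0.535 FPKM in mutant and 0.494 and 0.545 FPKM in control lenses. *Kif27* was at 0.247 and 0.255 FPKM in mutant and 0.0789 and 0.271 FPKM in control lenses, and its direction turned without control replicate 1. *Kif6* was at 0.168 and 0.263 FPKM in mutant and 0.128 and 0.135 FPKM in control lenses, from 18 and 31 reads against 15 in each control. The median of the class, 0.13, changed sign without control replicate 1 and without a filter on low values, so no direction can be given at this depth. *Kif17*, *Kif19a* and *Kif9* were under the filter, as were *Kif14* and *Kif18a* of the mitotic class and all 3 less characterised genes, *Kif12*, *Kif19b* and *Kif28*.

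The partners of the kinesins had medians nearer to 0, a difference that was not tested. Of 20 tested light chains and cargo adaptors 14 were lower and 6 higher, with a median log2 fold change of −0.03 and none at an unadjusted p under 0.05. *Klc1*, the main kinesin-1 light chain, was at 19.6 and 21.4 FPKM in mutant and 20.4 and 21.7 FPKM in control lenses. For the motors that walk the opposite way, 15 of 26 dynein and dynactin genes were higher and 11 lower, with a median of 0.07. *Dync1li2*, a dynein light intermediate chain, was at 5.66 and 6.76 FPKM in mutant and 7.91 and 7.94 FPKM in control lenses, and was the only gene of that list with an unadjusted p under 0.05 (adjusted p = 0.771, limma). That unadjusted p was 0.0349, and 0.0390 after the length correction (limma). The tracks themselves were close between the groups. The tested tubulin genes had a median of 0.02, and *Tuba1a*, the most abundant, was at 316.8 and 337.4 FPKM in mutant and 330.4 and 352.3 FPKM in control lenses. *Tubb6* was higher in mutant lenses, at 47.4 and 51.3 FPKM against 38.9 and 43.5 (adjusted p = 0.787, limma). Its unadjusted p was 0.0485, and 0.0753 after the length correction (limma).

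The trains that kinesin-2 moves in cilia were also near 0 as a list, with 10 of 19 intraflagellar transport genes higher, 9 lower and a median of 0.01. *Ift20*, at 19.2 and 19.0 FPKM in mutant and 16.9 and 15.0 FPKM in control lenses, and *Ift74*, at 9.36 and 9.44 FPKM against 6.58 and 8.23, had an unadjusted p under 0.05, with adjusted p = 0.787 and adjusted p = 0.788 (limma). Among all genes tested, 6.31% had such an unadjusted p in either direction. After the length correction the unadjusted p was 0.121 for *Ift20* and 0.0661 for *Ift74* (limma). Of 25 mitotic genes that are not kinesins, 15 were lower and 10 higher, with a median of −0.08. The proliferation marker *Mki67* was at 1.14 and 1.21 FPKM in mutant and 1.18 and 1.32 FPKM in control lenses. *Ube2c*, which drives mitotic exit, was at 1.10 and 1.24 FPKM in mutant and 0.851 and 0.605 FPKM in control lenses (adjusted p = 0.769, limma). The unadjusted p of *Ube2c* was 0.0320, and 0.0427 after the length correction (limma). No gene of these lists passed an adjusted p under 0.05, with limma or with voom.

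**Figure D5:**
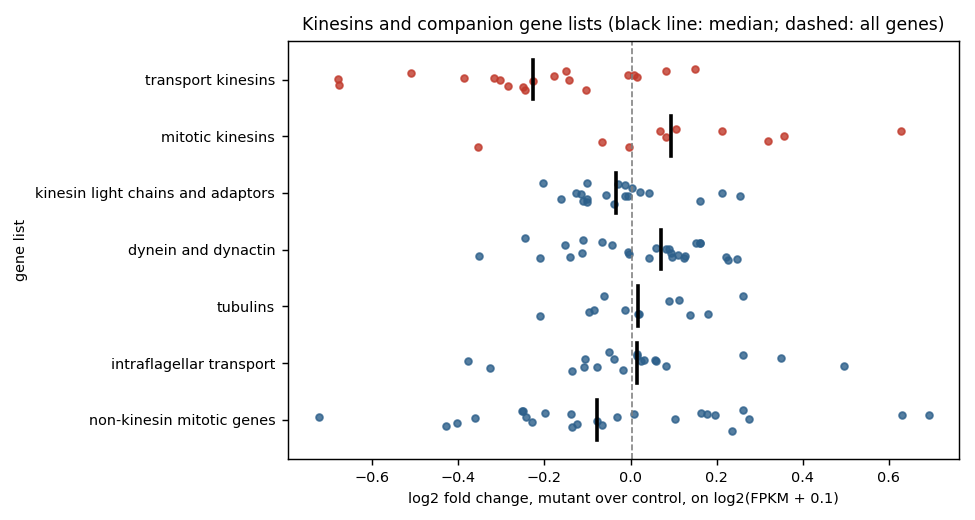
Log2 fold change (mutant over control) of the tested transport kinesins, mitotic kinesins and genes of each companion list, 1 point per gene, with a bar at the median. The transport class has a median of −0.23, and the mitotic motors, adaptors, dynein, tubulins, intraflagellar transport and non-kinesin mitotic genes have medians between −0.08 and 0.09.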

How the data were processed

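RNA of pooled lenses was sequenced in 2 mutant and 2 control libraries. The authors mapped reads with Hisat2, counted them with featureCounts and deposited FPKM per gene, with positions on build mm39 per the labels. The deposited FPKM values were whole multiples of 1 read for 100% of values (tolerance 0.05 reads), which gave the reads quoted. Values were scaled by median ratio, which was 1.0059 in every library and so left the libraries as deposited relative to each other. Genes with a mean of at least 0.1 FPKM were kept (15997). Their log2(FPKM + 0.1) was fitted with limma 3.58.1 in R 4.3.3, with a trend and Benjamini-Hochberg adjustment over all of them. The authors' own comparisons were not used. Kinesin members, roles, companion lists and markers were chosen with earlier results of these data known. Named genes were members with a mean of at least 5 FPKM or an unadjusted p under 0.05, the 3 largest changes each way and those next to the filter. Up to 4 genes with an unadjusted p under 0.05 and the most abundant gene were named per list, and other genes were chosen after their values were seen. P-values measure the spread between these pools only. Reads were not counted by molecule, so precision from depth covers counting error only. Exon overlap and shared words came from GENCODE M21 (GRCm38) and promoters from RefSeq. The script was tested on simulated data. Alternatives covered scaling, pseudocount, filter, trend, voom, *Xist*, replicate block, gene length and leaving out each library.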

Additional observations from a re-analysis of the deposited data

How the results depend on the processing

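Of 190 combinations of a named kinesin gene and an alternative, 185 kept the direction of the log2 fold change and 1, *Kif26b* with voom (−0.71), passed an adjusted p under 0.05. Many of these combinations could not have turned, so the count of 185 does not measure stability. A change of filter or trend, the replicate block and the *Xist* covariate leave the log2 fold change of the main fit as it is. The changes of scaling hardly moved it. Every turn came from leaving out a library. The direction turned for *Kif3a* without mutant replicate 2 (0.0439; range without single libraries −0.2492 to 0.0439), *Kif5b* without control replicate 2 (range −0.3083 to 0.0071), *Kif27* without control replicate 1 (range −0.0777 to 0.9701), and *Kifc3* without mutant replicate 1 (−0.0716) and control replicate 1 (−0.0669), with a range of −0.0716 to 0.086.

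The number of genes called over the whole table, 6, was 2 with a pseudocount of 1 or 0.01, a mean of at least 1 FPKM, no trend, or a replicate block, 1 without a filter or with *Xist* as a covariate, 14 with voom, and 0 without any single library. Kinesin calls were 0 except for 1 with voom, and those at an unadjusted p under 0.05 were 5 with voom and 0 to 5 without single libraries. Kinesins lower in mutant lenses numbered 11 at a mean of at least 1 FPKM and 19 to 23 without single libraries. The kinesin median was −0.0437 with a pseudocount of 1, −0.23 at a mean of at least 1 FPKM and −0.1378 to −0.0641 without single libraries. The transport median was −0.14 with a pseudocount of 1, −0.18 with the length correction and −0.27 to −0.19 without single libraries. The median of the cilia class was 0.0257 and 0.2195 with pseudocounts of 1 and 0.01, −0.0797 without a filter, 0.24 with voom and −0.0392 to 0.2493 without single libraries. Without single libraries, medians ran from 0.0596 to 0.2841 for mitotic kinesins, −0.0965 to −0.0071 for adaptors, 0.0167 to 0.0524 for dynein, −0.0084 to 0.0844 for tubulins, −0.0618 to 0.0249 for intraflagellar transport and −0.1126 to −0.0402 for non-kinesin mitotic genes, the last −0.0228 with the length correction. The causes were not tested.

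Same-numbered libraries did not deviate together (correlation −0.0051 over 15997 genes, with only 2 pairs), so the replicate numbers were not taken as pairs, and the block changed no kinesin call. With 2 pools per group and few reads for most motors below 1 FPKM, differences of the mitotic and ciliary motors were not resolved at this depth.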
